A study of Ovis aries and Bos taurus with 15 samples.

Results

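Glycolysis turns glucose into pyruvate in the cytosol, and lactate dehydrogenase and the monocarboxylate transporters then turn pyruvate into lactate and carry it across the plasma membrane. Endothelial cells are known to draw much of their ATP from this route even when oxygen is plentiful. The genes described here are 8 enzymes of the route, GPI, ALDOA, GAPDH, PGK1, PGAM1, ENO1, PKM and LDHA, and 2 lactate transporters, SLC16A1 (MCT1) and SLC16A3 (MCT4). The list was drawn up with results of these arrays known, among them the lower SLC16A3 value with GW9662, so the members count as chosen by the GW9662 values. Each gene is represented by all probe sets whose platform annotation names exactly 1 gene, with the manufacturer's control probe sets left out. This gave 14 of the 24016 probe sets that are not controls, and 10 of the 9155 named genes. LDHA and SLC16A3 had 3 probe sets each and the other 8 genes had 1.

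RNA was measured on 15 Affymetrix bovine arrays, 1 per sample, in 3 groups of 5. Ovine pulmonary endothelial cells, labelled PAEC, received GW9662 at 5 µM for 24 h. GW9662 binds PPARγ covalently and blocks it, PPARγ being a nuclear receptor known for its lipid handling targets. Bovine cells labelled BAEC, with no treatment in their labels, formed a control group, and ovine PAEC given the vehicle DMSO for 24 h were the group that both others were set against. All cells were grown in DMEM with 10% FBS. Nothing in the labels says that replicates were separate cultures or animals, so errors measure only the spread between samples, which may be technical. All values are log2 expression values after RMA, so a difference of 1 is a 2-fold change. In RNA from whole cultures, fewer cells of a type and less RNA per cell cannot be told apart.

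Because of that choice the GW9662 values of the members are given as a description, without p-values. The bovine comparison shares the vehicle arrays with it.

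The endothelial markers PECAM1 and CDH5 were bright in all groups, at 11.5 and 11.3 with GW9662, 11.7 and 11.6 in bovine cells, and 11.6 and 11.5 with vehicle. VWF, the factor stored by most endothelial cells, was at 2.29 with GW9662, 2.28 in bovine cells and 2.31 with vehicle, near the floor of the arrays. CLDN5, a tight junction protein, was at 2.43 with GW9662, 5.03 in bovine cells and 2.45 with vehicle. Markers of smooth muscle, fibroblasts, leukocytes, epithelium, and red cells and platelets were mostly dim: 26 of 31 measured had a mean under 3 in both ovine groups. The exceptions were COL3A1 (10.55 with GW9662 and 10.44 with vehicle), COL1A2 (10.36 with GW9662 and 10.33 with vehicle), TAGLN (7.16 with GW9662 and 7.18 with vehicle), CD14 (6.72 with GW9662 and 6.69 with vehicle) and SMTN (4.29 with GW9662 and 3.91 with vehicle). With GW9662 0 of 11 endothelial and 0 of these 31 other markers passed in limma, against 0.183% of all probe sets. At an unadjusted limma p under 0.05 there were 6 and 9, against 20.1% of all named genes. Of the 6 endothelial ones 5 were lower, among them PECAM1 at -0.15 without overlap. The 1 that was higher was KDR (3.79 with GW9662 against 2.64 with vehicle). For RNA quality, 3′ minus 5′ probe set values were averaged over 6 control transcripts, giving 0.956 ± 0.074 with GW9662, 0.881 ± 0.043 in bovine cells and 1.18 ± 0.085 with vehicle (SD, n = 5 arrays each). Vehicle replicate 1 correlated least with its own group (mean r = 0.9942, against 0.9965 or more for every other array).

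The 2 lactate transporters stood at opposite sides of their vehicle values in cells given GW9662. The 8 enzymes lay within 0.17 of theirs on the log2 scale, or within 0.44 with the RNA quality measure as a covariate. With that covariate PGAM1 (-0.44) and PKM (-0.19) lay farther from 0 than SLC16A3, which then did not stand apart from the enzymes. SLC16A3, the carrier that exports lactate from strongly glycolytic cells, was lower by 0.23 on its brightest probe set. SLC16A1, the widely expressed carrier that moves lactate in either direction, was higher by 0.25. None of the 8 enzymes was called.

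For SLC16A3 the 5 GW9662 arrays read 8.04, 7.94, 8.05, 7.91 and 7.996, against 8.28, 8.25, 8.20, 8.17 and 8.18 in the 5 vehicle arrays. Every GW9662 array was below every vehicle array. The means were 7.99 ± 0.060 with GW9662 and 8.21 ± 0.047 with vehicle (SD, n = 5 each), a log2 difference of -0.23 with an SE of 0.033, which is a change of -14.5%. The remaining SLC16A3 probe sets lay at the array floor. Their means were 2.67 with GW9662 against 2.73 with vehicle, and 1.94 with GW9662 against 1.99 with vehicle. Those values carry little signal, so the difference in SLC16A3 rests on 1 probe set.

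For SLC16A1 the GW9662 arrays read 8.60, 8.47, 8.41, 8.53 and 8.70, against 8.18, 8.43, 8.32, 8.30 and 8.22 in vehicle arrays. Vehicle replicate 2, at 8.43, lay just above GW9662 replicate 3, at 8.41, and this was the only overlap. The log2 difference was 0.25 with an SE of 0.064 (8.54 ± 0.11 with GW9662 and 8.29 ± 0.097 with vehicle, SD, n = 5 each). SLC16A1 was not called in the fit of all probe sets.

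**Figure D1:**
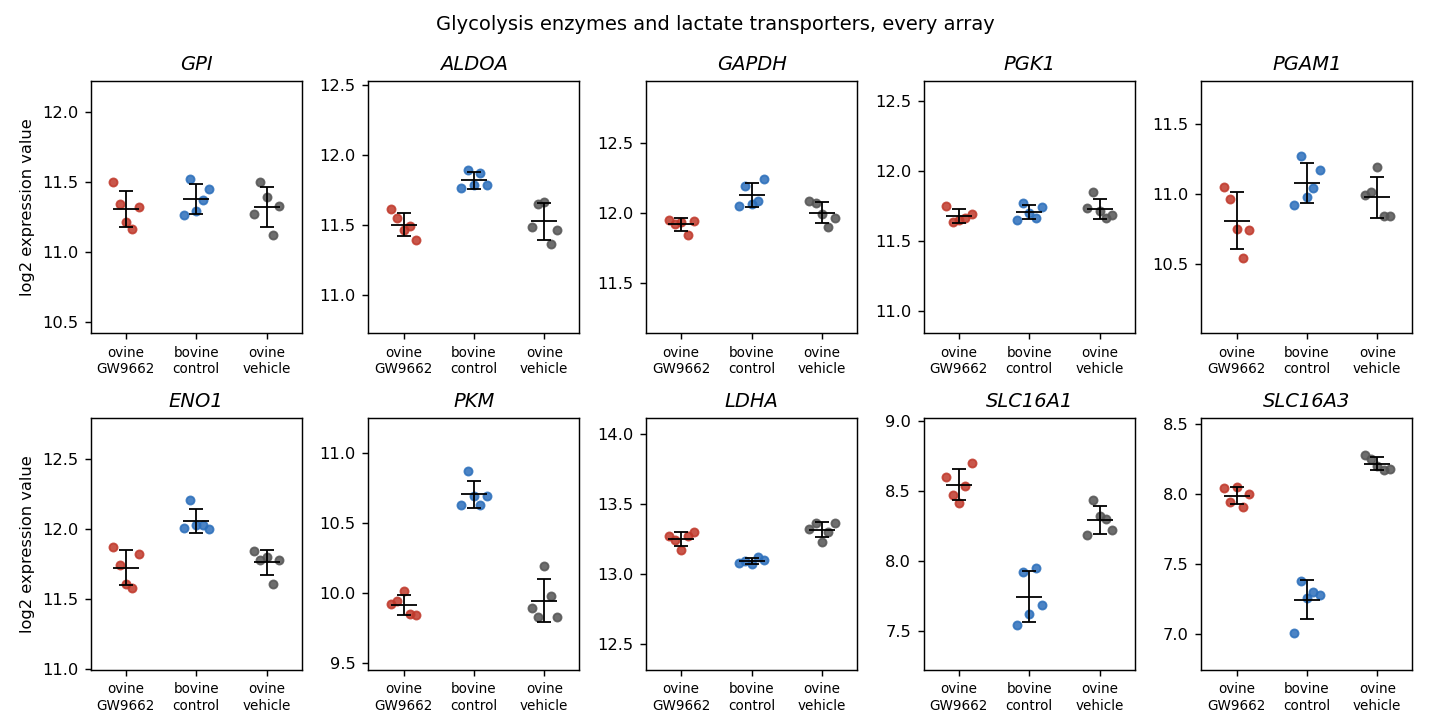
Log2 expression value (vertical axis, the same span of 1.8 in every panel) of each member's brightest probe set on every array, for ovine GW9662, bovine control and ovine vehicle. Points are arrays and bars are the mean ± SD of 5. SLC16A3 shows 3 separate groups, and PKM in bovine cells stands above both ovine groups, while GPI and PGK1 overlap in all groups.

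In the fit of all 24016 probe sets for GW9662 against vehicle, 1 of the 14 member probe sets was called at an adjusted p under 0.05, the SLC16A3 probe set whose lower value was known when the list was drawn up. The background was 0.183% of all probe sets called. The groups did not overlap in 2 of the 14, both SLC16A3 probe sets with lower values for GW9662, against 14.6% of all probe sets (12.7% lower). Of the 12 member probe sets with a mean of at least 7, 1 was called, against 0.448% of probe sets that bright, and 1 had groups that did not overlap, against 6.43%. The share called lower was 0.0375% of all probe sets. Nothing is read from these counts, since the choice of members used the same comparison. The SLC16A3 call was close to the threshold: limma (Benjamini-Hochberg) kept it in 1 of 10 fits that each left out an array, the one without GW9662 replicate 3. It was lost in all of the other 9. Array centring, a second quantile normalisation, removal of dim probe sets, a trended variance, array weights and a fit of all 15 arrays also ended it. With a replicate block or the 3′ minus 5′ covariate 0 of the 24016 probe sets were called. Those settings therefore say nothing about SLC16A3 in particular. The difference itself stayed between -0.21 and -0.24 when arrays were left out. It was -0.18 with centred arrays, -0.29 after the second quantile normalisation and -0.11 as the mean over the 3 probe sets. With the covariate it was -0.15. That measure did not overlap between the same arrays (means of 0.956 with GW9662 against 1.18 with vehicle).

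Of the steps from hexose phosphate to triose phosphate, those of GPI and ALDOA lay close to their vehicle level in the main fit. Of the phosphofructokinase subunits that act between them, which are no members, PFKL was at -0.23, PFKM at 0.07 and PFKP at -0.0045. GPI, which turns glucose phosphate into fructose phosphate, averaged 11.31 ± 0.13 with GW9662 and 11.32 ± 0.14 with vehicle (SD, n = 5 each), a log2 difference of -0.02 with an SE of 0.082. ALDOA, the aldolase that splits fructose bisphosphate, averaged 11.50 ± 0.084 with GW9662 and 11.52 ± 0.13 with vehicle, a log2 difference of -0.02 with an SE of 0.066. Both errors exceed the distance between the group means. With the RNA quality measure as a covariate GPI was at -0.13 and ALDOA at -0.15.

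GAPDH, which oxidises glyceraldehyde phosphate and makes NADH, read 11.95, 11.92, 11.93, 11.84 and 11.94 with GW9662, against 12.08, 12.07, 11.99, 11.90 and 11.96 with vehicle. Its log2 difference was -0.09 with an SE of 0.038, and the arrays overlapped. The array also carries 3 control probe sets along the GAPDH transcript, which are no members. The one at the 3′ end averaged 12.80 ± 0.076 with GW9662 and 12.84 ± 0.15 with vehicle, and the one in the middle 11.92 ± 0.063 with GW9662 and 11.94 ± 0.084 with vehicle. The 5′ one averaged 10.79 ± 0.20 with GW9662 and 10.53 ± 0.18 with vehicle, so its difference had the opposite sign to the other GAPDH probe sets. With the 3′ minus 5′ measure as a covariate the difference of the GAPDH member probe set was -0.02, against -0.09 without it. That measure did not overlap between the 2 ovine groups, so its part in the GAPDH values cannot be told apart from that of the treatment.

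PGK1, which makes the first ATP of the route, was at 11.68 ± 0.045 with GW9662 and 11.73 ± 0.075 with vehicle, and ENO1, the enolase that makes phosphoenolpyruvate, at 11.72 ± 0.13 with GW9662 and 11.76 ± 0.087 with vehicle. PKM, the pyruvate kinase, was at 9.91 ± 0.068 with GW9662 and 9.94 ± 0.15 with vehicle. PGAM1, the mutase between PGK1 and ENO1, had the widest spread of the 8 with GW9662, reading 11.05, 10.96, 10.75, 10.54 and 10.74, against 10.99, 11.01, 11.19, 10.84 and 10.84 with vehicle. Its log2 difference was -0.17 with an SE of 0.11, and the arrays overlapped. With the RNA quality measure as a covariate it was -0.44, with ALDOA at -0.15 and PKM at -0.19. With centred arrays the signs of GPI (0.03), ALDOA (0.02), ENO1 (0.01) and PKM (0.01) turned, so these differences have no settled direction.

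LDHA, which reduces pyruvate to lactate and restores NAD+, was the brightest member at 13.25 ± 0.048 with GW9662 and 13.31 ± 0.055 with vehicle (SD, n = 5 each; log2 difference -0.06, SE 0.0315). Its other probe sets gave 0.20 (SE 0.11; 10.13 with GW9662 against 9.92 with vehicle) and -0.05 (SE 0.066; 8.53 with GW9662 against 8.58 with vehicle). The 3 LDHA probe sets therefore differed in sign, none was called, and their mean was higher by 0.03.

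**Figure D2:**
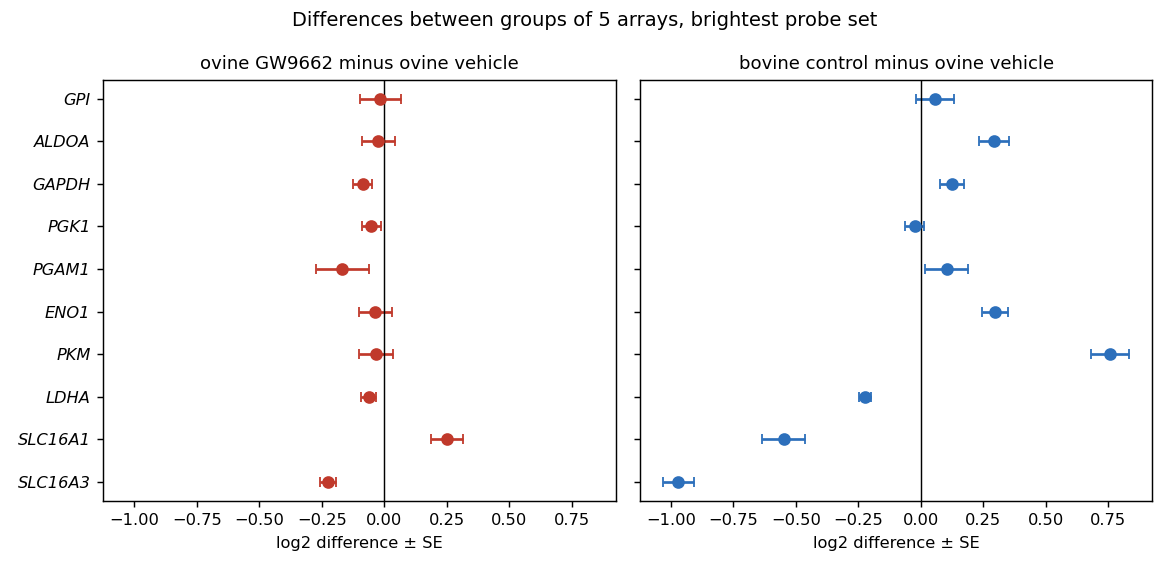
Log2 difference ± SE from limma (horizontal axis) for the brightest probe set of each member, ovine GW9662 minus ovine vehicle at left and bovine control minus ovine vehicle at right, 5 arrays per group. At left the enzymes lie near 0, with SLC16A1 at 0.25 and SLC16A3 at -0.23. At right PKM is at 0.76 and SLC16A3 at -0.97.

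Between species the order was different. Of the 10 genes, 3 enzymes were higher in bovine BAEC than in ovine PAEC given vehicle (PKM, ENO1 and ALDOA), LDHA and both transporters were lower, and 4 enzymes were not called. PKM was higher by 0.76 on the log2 scale and SLC16A3 lower by 0.97, the widest differences of the 10 in each direction. Adjusted p-values in this comparison are limma's, with Benjamini-Hochberg adjustment over all 24016 probe sets. Species, cell source, culture and exposure to DMSO, which the bovine labels do not mention, cannot be told apart here. How well bovine probes match sheep RNA was not tested.

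For PKM the bovine arrays read 10.63, 10.87, 10.69, 10.63 and 10.69, against 9.89, 9.83, 10.19, 9.98 and 9.83 in ovine vehicle arrays. The lowest bovine array was above the highest ovine one. The log2 difference of 0.76 had an SE of 0.075 (adjusted p = 6.1e-05, limma), or a 1.69-fold higher value in bovine cells with a 95% interval of the log2 difference from 0.59 to 0.93. ENO1 read 12.01, 12.21, 12.03, 12.03 and 12.00 in bovine arrays, against 11.84, 11.78, 11.80, 11.61 and 11.78 in ovine vehicle arrays, again without overlap. Its log2 difference was 0.30 (SE 0.053, adjusted p = 0.00245, limma). ALDOA read 11.76, 11.89, 11.78, 11.87 and 11.78 in bovine arrays, against 11.48, 11.65, 11.66, 11.36 and 11.46 in ovine vehicle arrays, for a log2 difference of 0.29 (SE 0.061, adjusted p = 0.00602, limma). All 3 calls end when RNA quality enters as a covariate, as do those of LDHA and SLC16A1. Calls over all probe sets then fall from 10860 to 1601. ENO1 and PKM catalyse consecutive steps, ALDOA acts earlier, and the enzymes between ALDOA and ENO1 were not called.

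LDHA read 13.08, 13.09, 13.07, 13.12 and 13.10 in bovine arrays, against 13.32, 13.36, 13.23, 13.30 and 13.36 in ovine vehicle arrays. The bovine arrays lay close together, below all ovine ones. The log2 difference was -0.22 (SE 0.0255, adjusted p = 0.000151, limma), while the dimmer LDHA probe sets gave -0.06 and -0.09 and were not called (adjusted p = 0.647 and 0.214). LDHB, the other common subunit of lactate dehydrogenase and no member, averaged 11.90 ± 0.054 in bovine cells and 11.83 ± 0.039 in ovine vehicle cells (log2 difference 0.07, adjusted p = 0.0868, limma).

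Both transporters were lower in bovine cells. SLC16A3 read 7.01, 7.38, 7.26, 7.30 and 7.28 in bovine arrays, against 8.28, 8.25, 8.20, 8.17 and 8.18 in ovine vehicle arrays. All bovine arrays lay well below all ovine ones, and the log2 difference was -0.97 (SE 0.0615, adjusted p = 3.1e-06, limma), so the bovine value was 0.510 of the ovine one. The dim SLC16A3 probe sets were lower by 0.07 (2.65 in bovine cells against 2.73 in ovine vehicle cells, adjusted p = 0.0211) and 0.02 (1.97 in bovine cells against 1.99 in ovine vehicle cells, adjusted p = 0.138), both at the floor. SLC16A1 read 7.54, 7.92, 7.62, 7.95 and 7.68 in bovine arrays, against 8.18, 8.43, 8.32, 8.30 and 8.22 in ovine vehicle arrays. Its groups did not overlap either, and the log2 difference was -0.55 (SE 0.0875, adjusted p = 0.00125, limma).

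The other 4 enzymes were not called between species. GPI averaged 11.38 ± 0.11 in bovine cells and 11.32 ± 0.14 in ovine vehicle cells, with a 95% interval of the difference from -0.11 to 0.23. PGK1 averaged 11.70 ± 0.052 in bovine cells and 11.73 ± 0.075 in ovine vehicle cells, with an interval from -0.11 to 0.06. PGAM1 averaged 11.08 ± 0.14 in bovine cells and 10.98 ± 0.14 in ovine vehicle cells, with an interval from -0.09 to 0.30. GAPDH lay near the threshold, at 12.12 ± 0.083 in bovine cells and 12.00 ± 0.076 in ovine vehicle cells (log2 difference 0.12, adjusted p = 0.0624, limma). It passed with centred arrays (adjusted p = 0.0269), after a second quantile normalisation (0.0149), in a fit of all 15 arrays (0.0275) and without vehicle replicate 1 (0.0457), the array least like its group.

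By count, 7 of the 14 member probe sets were called between species, against 45.2% of all probe sets, and the groups did not overlap in 8 of the 14, against 53% of all (3 higher against 12.5%, 5 lower against 40.5%). The 3 called higher compare with a background of 15.6% and the 4 called lower with 29.6%. With centred arrays the split of all calls was 3740 higher and 2715 lower, in place of 3740 higher and 7120 lower. With 1 probe set per gene, 6 of 10 were called against 49.2% of all named genes, and the same 6 did not overlap, against 50.8%. Of the 12 member probe sets with a mean of at least 7, 6 were called against 61.9% of probe sets that bright, and 6 did not overlap against 50.5%. The members' counts are near these shares, so the number called is no result about glycolysis. The median difference over the 10 genes was 0.08, against -0.02 over all named genes.

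The 6 calls on brightest probe sets stayed past the threshold in all 10 fits that left out an array. The RNA quality measure was 0.881 in bovine arrays against 1.18 in ovine vehicle arrays, without overlap, so its part and that of the group cannot be told apart. When this measure entered as a covariate, calls over all 24016 probe sets fell from 10860 to 1601. Of the 6, 1 stayed, SLC16A3 at -0.98 (adjusted p = 0.0140, limma). PKM was then at 0.41 (adjusted p = 0.249), ENO1 at 0.37 (0.236), ALDOA at 0.14 (0.835), LDHA at -0.14 (0.307) and SLC16A1 at -0.85 (0.0640). Between the same arrays the mean of 7 smooth muscle markers ran from 3.66 to 3.80 in bovine cells and from 3.12 to 3.31 in ovine vehicle cells. Of the 7, 2 were higher in bovine cells, TAGLN at 9.001 in bovine cells against 7.18 in ovine vehicle cells and SMTN at 5.19 in bovine cells against 3.91 in ovine vehicle cells. The other 5 had means under 3 in both groups, among them ACTA2 and MYH11. Of these 5 only MYH11 was called, lower at 2.52 in bovine cells against 2.56 in ovine vehicle cells. Of 7 fibroblast markers 1 was higher in bovine cells, COL1A2 at 11.24 against 10.33 in ovine vehicle cells. COL3A1 was at 10.41 in bovine cells against 10.44 in ovine vehicle cells, and 3 dim ones were lower. Of 11 endothelial markers 4 were higher and 4 lower, against 21.9% and 27.4% of all named genes. ROBO4 was higher by 1.67 and TEK by 0.67, while ENG was at -0.29 and ERG at -0.20. The mean of 6 leukocyte markers ran from 2.39 to 2.46 in bovine cells and from 3.18 to 3.24 in ovine vehicle cells. Of the 6, 3 were lower in bovine cells, with CD14 at 2.27 in bovine cells against 6.69 in ovine vehicle cells, and PTPRC was under 3 in both. The part of any of these markers in the members' differences was not tested.

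The steps around the members were read from lists of pathway genes. These lists, like the members, were chosen with earlier results of these data known. Their counts and p-values are therefore a description and not a separate test. With GW9662, 0 of 67 measured genes in 7 lists passed. At an unadjusted limma p under 0.05 there were 18, of which 5 were higher and 13 lower, against 20.1% of all named genes at that limit. The lowest p in the list for glucose uptake and the upper route belonged to SLC2A1 (GLUT1), the main glucose transporter of endothelium. It read 7.68, 7.64, 7.58, 7.61 and 7.59 with GW9662, against 7.92, 7.90, 7.85, 7.74 and 7.96 with vehicle. The groups did not overlap, and the log2 difference was -0.26 (SE 0.041, adjusted p = 0.0627, limma), about the size of that of SLC16A3. HK1, the hexokinase that traps glucose in the cell, was at -0.20 (adjusted p = 0.169), PFKL, a phosphofructokinase subunit, at -0.23 (0.218), and SLC2A3, a further glucose transporter, at 0.22 on a dim probe set (2.83 with GW9662 against 2.61 with vehicle, adjusted p = 0.218). Of the 15 measured genes of this list 4 values were positive and 11 negative, with a median of -0.01, the same as over all named genes.

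Among relatives and partners of the transporters only 2 of 14 listed genes were measured. BSG (basigin), the chaperone that brings SLC16A1 and SLC16A3 to the membrane, read 10.51, 10.43, 10.40, 10.37 and 10.34 with GW9662, against 10.55, 10.74, 10.71, 10.44 and 10.42 with vehicle. These arrays overlapped, and the log2 difference was -0.16 (SE 0.070, adjusted p = 0.229, limma). BSG was lower in bovine cells, at 9.97 ± 0.078, against 10.57 ± 0.15 in ovine vehicle cells (log2 difference -0.61, adjusted p = 0.000202, limma), the same direction as both transporters. SLC16A13, an orphan relative, was at -0.27 with GW9662 (adjusted p = 0.217) and at 0.39 in bovine cells (adjusted p = 0.0216).

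**Figure D3:**
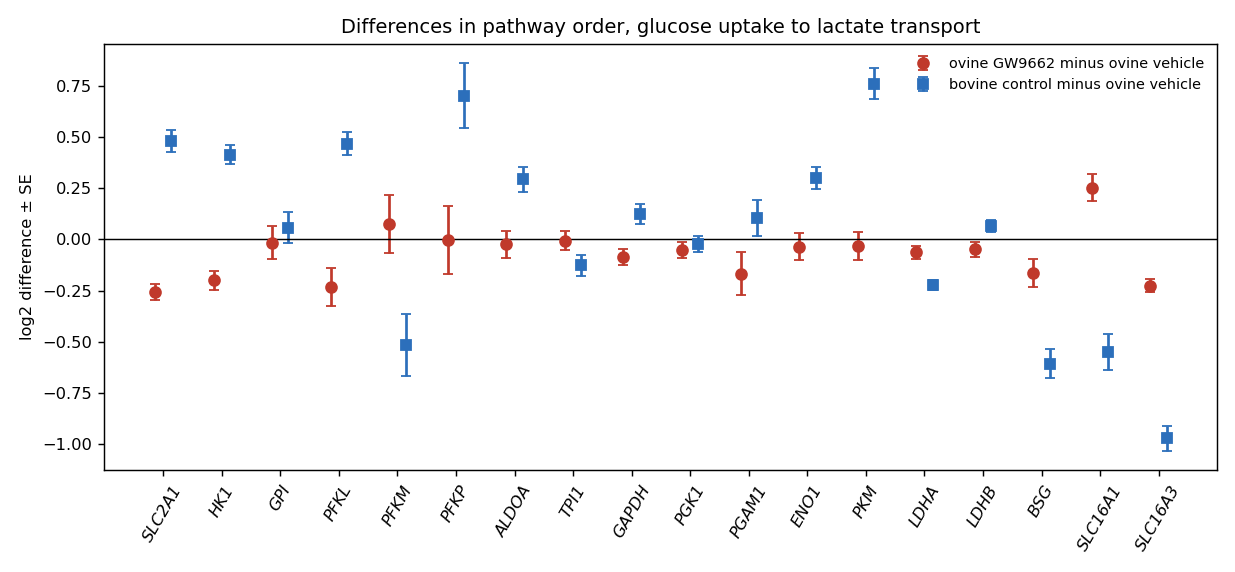
Log2 difference ± SE (vertical axis) of 18 genes set in the order of the route from glucose uptake to lactate transport, the brightest probe set of each, for ovine GW9662 minus ovine vehicle (red circles) and bovine control minus ovine vehicle (blue squares), 5 arrays per group. The GW9662 values of the 8 member enzymes lie within 0.17 of 0. SLC2A1, at -0.26, PFKL, at -0.23, and SLC16A3, at -0.23, are the lowest of the red values, and SLC16A1, at 0.25, the highest.

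Between species, 4 of the 15 genes of glucose uptake and the upper route were higher in bovine cells, 3 were lower and 8 did not pass in limma. Of all named genes 21.9% were called higher and 27.4% lower, the background for each list of this comparison. SLC2A1 was higher by 0.48, HK1 by 0.41 and PFKL by 0.47 (adjusted p = 0.000125, 0.000149 and 0.000226). PFKFB3, which makes the activator of phosphofructokinase, was lower, at 8.70 ± 0.20 in bovine cells and 9.63 ± 0.18 in ovine vehicle cells (log2 difference -0.93, adjusted p = 0.000257). Of 6 measured genes of the pentose phosphate path, which branches off before GPI, 5 were higher in bovine cells and 0 lower, with a median of 0.37, against 21.9% of all named genes called higher and a median of -0.02. TKT, its transketolase, was higher by 0.78 (10.73 ± 0.062 in bovine cells and 9.95 ± 0.074 in ovine vehicle cells, adjusted p = 9.8e-07, limma). TALDO1, its transaldolase, was higher by 0.34 (adjusted p = 0.000142), PGD by 0.32 (0.00252) and RPE by 0.62 (0.0117). Of the 6 other isoenzymes of lower glycolysis only LDHC passed, lower by 0.08 at the floor of the arrays (2.80 in bovine cells against 2.88 in ovine vehicle cells, adjusted p = 0.00569).

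Pyruvate entry to mitochondria competes with LDHA for its substrate. With GW9662 0 of 11 measured genes passed (limma; 4 at an unadjusted p under 0.05, 2 in each direction). PDP1, the phosphatase that activates pyruvate dehydrogenase, was at 0.33 (10.22 ± 0.061 with GW9662 and 9.89 ± 0.16 with vehicle, adjusted p = 0.137), and its groups did not overlap. PDHA1, a subunit of that enzyme, was at -0.16 (adjusted p = 0.217). In bovine cells 4 of the 11 were higher and 2 lower: PDHB, a subunit of the same enzyme, was higher by 0.52 (adjusted p = 5.4e-05) and MPC2, of the mitochondrial pyruvate carrier, by 0.24 (0.00399), whereas PDP1 was lower, at -0.68 (0.00184). In the list of gluconeogenesis and glycogen 0 of 10 genes passed with GW9662 (limma; 1 at an unadjusted p under 0.05). In bovine cells 2 of these were higher and 4 lower, led by FBP1, the phosphatase that runs the phosphofructokinase step backwards, at 2.12 in bovine cells against 5.37 in ovine vehicle cells, where the bovine value is at the floor. PCK2, the mitochondrial enzyme that makes phosphoenolpyruvate, was higher, at 6.30 ± 0.20 in bovine cells and 4.04 ± 0.44 in ovine vehicle cells (log2 difference 2.26, adjusted p = 3.1e-05, limma).

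Several of the members are known targets of HIF1A, a hypoxia factor like EPAS1. With GW9662 0 of 17 measured hypoxia genes passed, and 3 had an unadjusted limma p under 0.05. EPAS1 was at 0.36 (10.35 ± 0.033 with GW9662 and 10.00 ± 0.16 with vehicle, adjusted p = 0.109) and EGLN3, a prolyl hydroxylase of these factors, at 0.34 (adjusted p = 0.217), each without overlap. In bovine cells 2 of the 17 were higher and 7 lower, against 21.9% and 27.4% of all named genes. ADM, the vasodilator peptide adrenomedullin, had a log2 difference of -1.83 (adjusted p = 1.4e-07, limma). EGLN3 was lower by a log2 difference of -2.33 (5.58 ± 0.19 in bovine cells and 7.90 ± 0.22 in ovine vehicle cells, adjusted p = 9.6e-07) and P4HA1, a collagen hydroxylase, by -0.83 (adjusted p = 3.65e-06), while NDRG1 was higher by 0.78 (adjusted p = 2.2e-05).

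Within a group the enzymes varied together from array to array. GW9662 replicate 1 held the highest value of its group for 6 of the 8 enzymes, bovine replicate 2 for 6 of 8, and vehicle replicate 4 held the lowest for 6 of 8. PKM and LDHA departed from this: vehicle replicate 3 had the highest PKM of its group (10.19) and the lowest LDHA (13.23). The arrays share 1 normalisation, so such shared deviations are a description of the arrays.

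**Figure D4:**
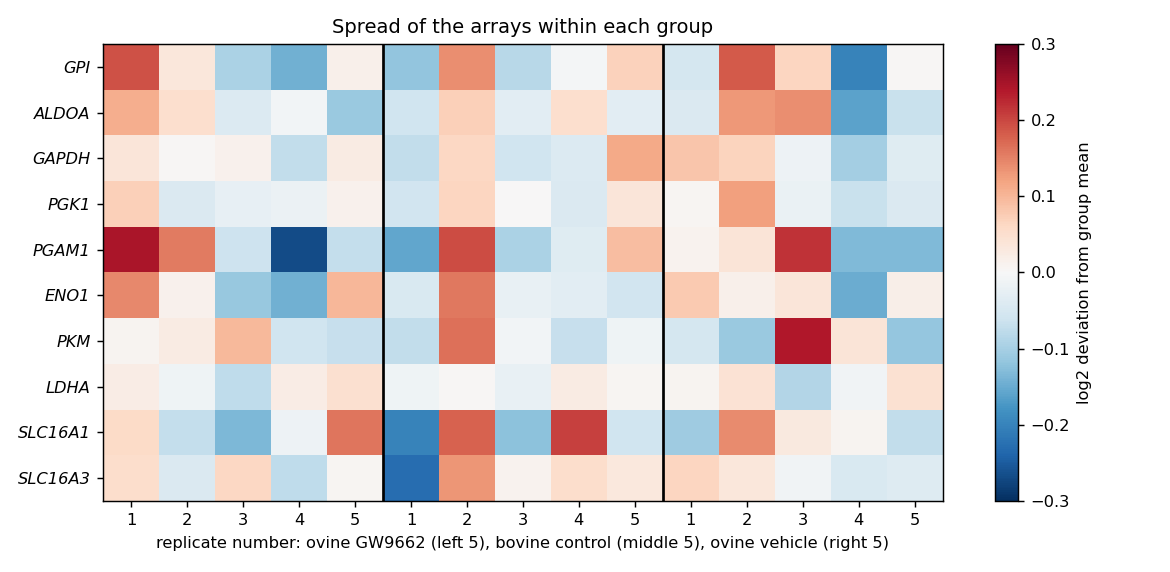
Deviation of each array from its group's mean (colour, log2 units) for the brightest probe set of the 10 members, in columns for replicates 1 to 5 of ovine GW9662, bovine control and ovine vehicle. Most enzymes are high together in GW9662 replicate 1 and bovine replicate 2 and low together in vehicle replicate 4.

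The genes whose deviations from the group means were most like those of SLC16A3, among 5091 named genes with a mean of at least 5, were VCL, UMPS, HDGF, GNG5 and FST. Pearson's r over the 15 arrays was 0.83, 0.82, 0.80, 0.79 and 0.74, and Spearman's rho 0.76, 0.77, 0.71, 0.80 and 0.87. They were picked as the highest of all candidates, so no p-value is given. Without the 2 arrays on which SLC16A3 lay farthest from its median, r was 0.69, 0.69, 0.61, 0.78 and 0.79. Their log2 differences with GW9662 were -0.04, 0.02, -0.00, -0.11 and -0.16, each nearer to 0 than that of SLC16A3.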

How the data were processed

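The authors deposited log2 expression values of 24128 probe sets on 15 arrays, made with RMA (version not given) per the submitters' processing notes. The lowest value was 0.899, the median 3.22 and the highest 14.07. They record no signal over background, so a mean under 3 was treated as the floor. The number of arrays limits the precision. The tests leave out 112 control probe sets. In the platform annotation 13292 of the other 24016 had 1 symbol, 86 several and 10638 none. The probe set with the highest mean over the 15 arrays stood for a gene.

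Each comparison was fitted in limma 3.58.1 (R 4.3.3; lmFit, eBayes) on its own 10 arrays, with Benjamini-Hochberg adjustment over 24016 probe sets and a threshold of 0.05. The fits were also run on simulated data with independent noise in each probe set. That run held no shifts of whole arrays, so it cannot show how such shifts or RNA quality affect the calls. All members are described, with up to 4 genes of smallest p per pathway list. The members and lists were chosen with earlier results of these data known. Groups came from the sample titles. Alternatives covered scaling, dim probe sets, variance, array weights, a replicate block, left-out arrays, 1 or all probe sets per gene, a 3′ minus 5′ covariate and a fold limit of 2. Gene and protein sequences were not used here.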

Additional observations from a re-analysis of the deposited data

Results flagged for a closer look

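Each group's lowest and highest array was compared with its others for the 10 genes, 30 groups in all, and 3 stood apart by Dixon's test at the 95% level, which chance flags in about 1 of 20 groups. ENO1 was at 12.21 in bovine replicate 2, against 12.00 to 12.03 in the other bovine arrays. Without that array the bovine minus ovine difference was 0.26 (limma adjusted p = 0.00263), against 0.30 with it. ENO1 was at 11.61 in vehicle replicate 4, against 11.78 to 11.84 in the other vehicle arrays, and without it the bovine minus ovine difference was 0.26 (limma adjusted p = 0.00314) and the GW9662 minus vehicle difference -0.07. PKM was at 10.87 in bovine replicate 2, against 10.63 to 10.69 in the others, and the difference without it was 0.72 (limma adjusted p = 0.000176), against 0.76 with it.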

How the results depend on the processing

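The count of member probe sets called with GW9662 was 1 and became 0 with centred arrays, a second quantile normalisation, dim probe sets left out, a trended and robust variance, array weights, all 15 arrays in 1 fit, the 3′ minus 5′ covariate and a fold of at least 2. It ranged from 0 to 1 when arrays were left out. With the replicate block it was 0, and 6 for the bovine comparison. Whether the numbers pair the samples is not known. Same-numbered arrays correlated in their deviations at over 0.1 in 1 of 5 pairs for GW9662 (-0.19 to 0.17) and 0 of 5 for bovine cells. No array correlated best with its own number, which cannot exclude pairing since such deviations also carry shifts of whole arrays. The bovine count of 7 became 1 with the covariate and 0 with a fold of at least 2, and ranged from 7 to 8 when arrays were left out. Differences that changed sign were all uncalled. For GW9662 they were GPI (0.0264), ALDOA (0.019), ENO1 (0.0074) and PKM (0.0101) with centred arrays, the same 4 genes in 1 to 4 of 10 fits with an array left out (up to 0.0297), and LDHA (0.0308) as the mean of its probe sets. With the covariate GPI was at -0.0799, PGK1 at 0.0037 and PGAM1 at -0.20 between species, PGK1 was at 0.0096 with centred arrays, and it ranged from -0.0418 to 0.006 with arrays left out. Calls over all probe sets with GW9662 were 44 (35 higher, 9 lower), 67 with centring (61 and 6), 62 after quantile normalisation (38 and 24), 237 in the fit of 15 arrays and 0 with the block or the covariate. For the bovine comparison they were 10860, 6455 with centring (3740 and 2715), 6802 after quantile normalisation (3224 and 3578) and 1601 with the covariate. The causes were not tested. Low signal limits the 2 SLC16A3 probe sets at the floor.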
